A study of Mus musculus with 36 samples.

Results

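Fgf21, Gdf15 and Adm2 encode secreted stress hormones, and their mRNA was followed across every genotype and treatment of a study of mouse embryonic fibroblasts (MEFs). They are 3 of the 54735 gene symbols in the deposited table. They were chosen with earlier results of these data known, so counts of members called are not independent evidence. FGF21 is an endocrine fibroblast growth factor made mainly by the liver, where fasting and amino acid shortage raise it. GDF15 is a distant member of the TGF-beta family that acts on the hindbrain to lower food intake. ADM2, also called intermedin, is a peptide of the calcitonin gene-related peptide family that dilates vessels. All 3 genes are known as targets of the integrated stress response, in which kinases such as GCN2 (Eif2ak4, activated by amino acid shortage) and PERK (Eif2ak3, activated by stress in the endoplasmic reticulum) phosphorylate eIF2alpha, general translation slows, and translation of the transcription factors ATF4 and CHOP (Ddit3) rises.

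RNA was sequenced from WT, GCN2-deletion and PERK-deletion MEFs, all grown in RPMI 1640 with fetal bovine serum. Cells of each genotype were left untreated, given the solvent DMSO, starved of amino acids in RPMI SILAC medium without lysine and arginine, or given 200 nM thapsigargin, an inhibitor of the calcium pump of the endoplasmic reticulum, and both stresses lasted 6 h. There were 12 groups of 3 libraries, 36 in all, labelled as technical replicates, so the p-values measure only the spread between such libraries. No label tells apart more lines than 1 for a genotype, so an effect of the deletion and one of the line cannot be told apart. They assign no control to either stress: starvation was compared here with untreated cells and thapsigargin with DMSO. Values are TPM (abundance scaled for transcript length, to the same total in each library). The depth of sequencing is unknown from them, no counting interval can be given, and a 0 means only that a gene is listed at 0. In these bulk samples, fewer expressing cells and less RNA per cell cannot be told apart.

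The kinase genes were measured first, as a check of the labels. Eif2ak4 lay between 4.54 and 7.89 TPM in the 12 GCN2-deletion libraries and between 18.4 and 28.1 TPM in all others, with no overlap. Eif2ak3 was lower in PERK-deletion than in WT libraries, with no overlap, in untreated cells (4.22 ± 0.353 against 6.99 ± 0.878 TPM, SD, n = 3), with DMSO (4.50 ± 0.280 against 7.29 ± 0.484) and with thapsigargin (8.61 ± 0.606 against 11.7 ± 1.17). In starved cells the libraries of these lines overlapped (3.77 ± 0.429 against 3.98 ± 0.200 TPM), so the starved libraries do not check the PERK label by this gene. Transcripts of both genes remained in their deletion lines, and gene-level TPM does not say which exons they hold. The 8 fibroblast markers summed to between 3050 and 6982 TPM per library. Single markers differed in the PERK-deletion line, Col1a1 and Col3a1 the most. Untreated Col1a1 was 15.1 ± 0.772 TPM there against 1058 ± 235 in WT and 1348 ± 53.5 in the GCN2-deletion line, and untreated Col3a1 was 0.871 ± 0.549 TPM against 257 ± 21.5 and 109 ± 13.8. Untreated Col1a2 (128 against 476 TPM), S100a4 (179 against 782), Pdgfrb (13.8 against 30.0) and Thy1 (1.24 against 4.68) were lower there than in WT. Vim was higher (2060 against 1629 TPM), and Fn1 overlapped (765 against 745 TPM). The part of these line differences in the results for the PERK-deletion line was not tested. In 6 libraries, at most 1 per group, microRNA genes held over 2% of TPM (up to 3.58%), and every result was also computed without them. All 5 hepatocyte markers stayed under 1 TPM in every library, with Serpina1a at 0 throughout. Summed markers of other cell types reached at most 3.69 TPM for adipocytes, 2.8 TPM for muscle, 10.6 TPM for macrophages (mostly Cd68), 2.15 TPM for epithelium and 6.84 TPM for endothelium.

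The loci and the 250 bases upstream of a transcription start of each gene are given here because the members moved together in some groups and apart in others. For Gdf15 only the window of the outer start is printed. Coordinates are those of GRCm38, the mm10 assembly. Fgf21 (ENSMUSG00000030827.5) lies on the minus strand of chromosome 7 from 45613886 to 45615490 and has 1 annotated transcript of 3 exons. Gdf15 (ENSMUSG00000038508.7) lies on the minus strand of chromosome 8 from 70629393 to 70632456 and has 2 transcripts, with 3 exons from the outer start and 2 exons from a start at 70632095. Adm2 (ENSMUSG00000054136.6) lies on the plus strand of chromosome 15 from 89322720 to 89324731 and has 1 transcript of 3 exons. No other annotated gene overlaps any of them. The windows are chr7:45615491-45615740 on the minus strand for Fgf21, chr8:70632457-70632706 on the minus strand for the outer Gdf15 start, and chr15:89322470-89322719 on the plus strand for Adm2. They are RefSeq sequences of GRCm38.p6, written 5′ to 3′ on the gene's strand, and capitals mark the motif matches described next.
Fgf21: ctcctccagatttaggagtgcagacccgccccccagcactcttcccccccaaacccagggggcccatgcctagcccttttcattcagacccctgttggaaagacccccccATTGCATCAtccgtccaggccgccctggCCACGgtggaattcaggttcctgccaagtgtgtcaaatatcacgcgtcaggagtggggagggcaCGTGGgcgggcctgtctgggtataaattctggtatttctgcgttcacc
Gdf15: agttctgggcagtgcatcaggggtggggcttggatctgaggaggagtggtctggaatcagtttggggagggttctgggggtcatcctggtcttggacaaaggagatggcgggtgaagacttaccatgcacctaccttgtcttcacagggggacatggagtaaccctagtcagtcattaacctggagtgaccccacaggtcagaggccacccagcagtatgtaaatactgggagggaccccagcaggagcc
Adm2: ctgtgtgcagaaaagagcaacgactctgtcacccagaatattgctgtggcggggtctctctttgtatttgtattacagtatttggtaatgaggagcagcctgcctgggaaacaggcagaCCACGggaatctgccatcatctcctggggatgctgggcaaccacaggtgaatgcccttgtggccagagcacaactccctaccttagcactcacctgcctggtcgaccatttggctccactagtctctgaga

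Motifs were searched on both strands of the 300-base RefSeq windows that run from 250 bases before to 50 after each start. The core of the C/EBP-ATF response element, bound by ATF4 with C/EBP partners, was searched as TGATGNAAN. It matched once, in Fgf21, at positions -140 to -132 from the start (chromosome 7, 45615622 to 45615630), where the opposite strand reads TGATGCAAT. Of all 32851 promoter windows, 3.95% hold this motif. The CCACG part of the ER stress element matched at -112 to -108 and, on the opposite strand, at -48 to -44 in Fgf21, and at -131 to -127 and 44 to 48 in Adm2. It is common, present in 32.8% of windows, and it lies inside the reverse complement of the UPR element TGACGTGG. Neither Gdf15 window matched any motif searched. No member's window matched the cyclic AMP response element TGACGTCA (1.79% of windows), TGACGTGG (0.676%), the whole ER stress element (0.119%) or a single p53 decamer (8.36%). A match describes letters in these windows and shows no binding.

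Amino acid starvation of WT cells raised all 3 hormone mRNAs. Fgf21 measured 0.0851, 0.445 and 0.556 TPM in the 3 untreated libraries and 8.92, 11.2 and 11.6 TPM in the starved ones. Adm2 went from 0.294, 0.276 and 0.215 TPM to 7.72, 9.27 and 10.1 TPM. Gdf15 went from 0.164, 0.161 and 0.281 TPM to 1.43, 2.16 and 1.79 TPM. Every starved library lay above every untreated one for each gene, and Gdf15 was the lowest of the 3 per length in each starved library. The ratios of mean TPM were 29.2 for Fgf21, 34.5 for Adm2 and 8.88 for Gdf15. On the scale log2(TPM + 1), which understates changes of low genes, the changes were 3.10 for Fgf21 (SE 0.145, adjusted p = 1.8e-15), 2.98 for Adm2 (SE 0.103, adjusted p = 2.21e-18) and 1.21 for Gdf15 (SE 0.116, adjusted p = 3.52e-09) in limma's moderated test. All 3 members were called higher, against 12.5% of the 16083 genes tested.

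**Figure D1:**
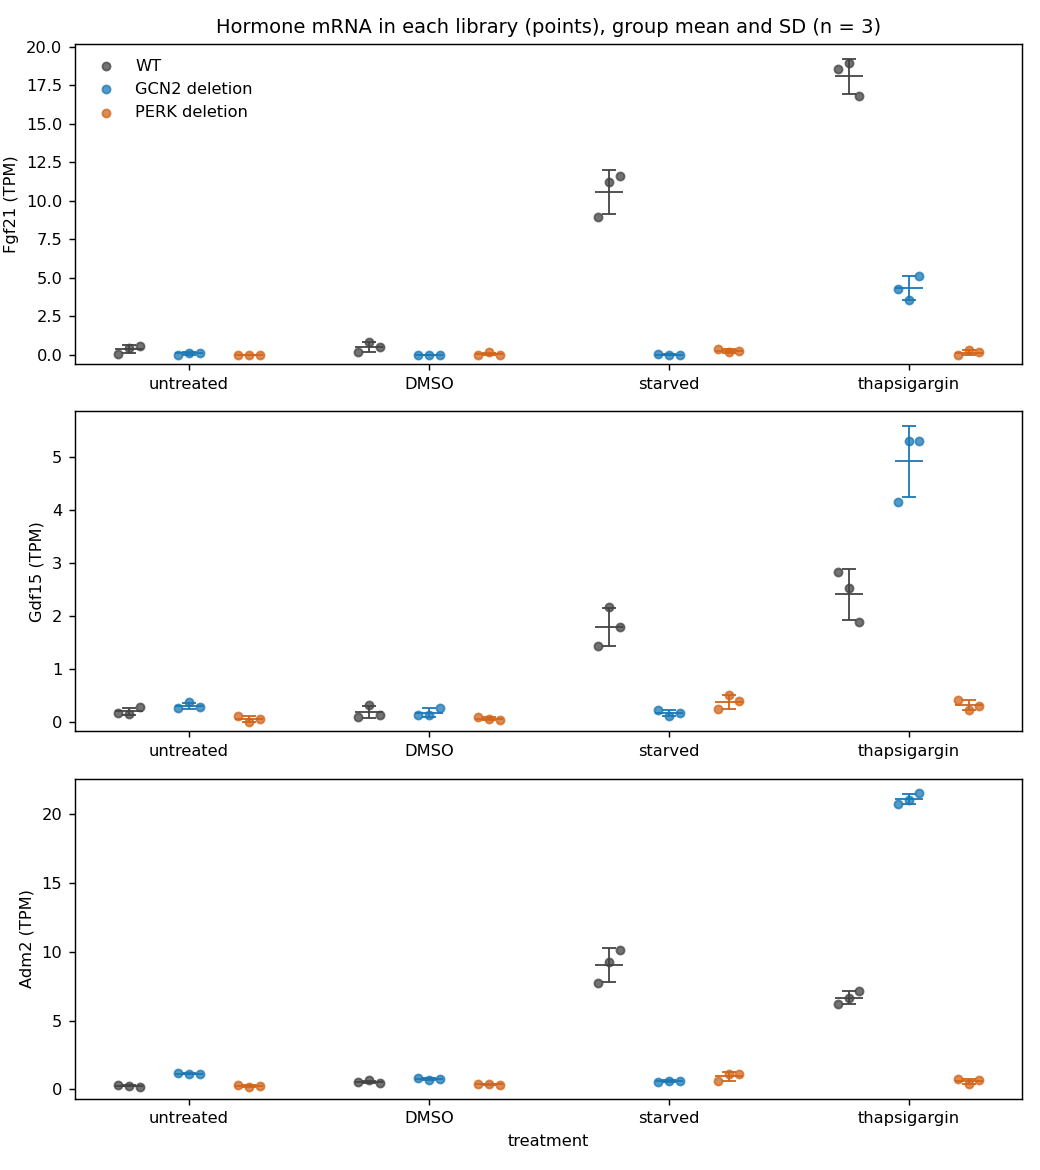
TPM of Fgf21, Gdf15 and Adm2 (3 panels, linear axes with their own ranges) in each of the 36 libraries by treatment, coloured by genotype; points are libraries, horizontal lines are group means and bars are SD (n = 3). All 3 mRNAs stand above their controls under both stresses in WT cells and under thapsigargin in the GCN2-deletion line, where Adm2 averages 21.1 TPM, and PERK-deletion libraries are at or below 1.16 TPM throughout.

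In the GCN2-deletion line no hormone rose with starvation. Fgf21 was listed at 0.0608, 0 and 0 TPM in starved GCN2-deletion cells and at 0, 0.146 and 0.141 TPM in untreated ones, and its log2 change of -0.10 did not pass (adjusted p = 0.694). Gdf15 was 0.237, 0.121 and 0.177 TPM starved and 0.267, 0.379 and 0.282 TPM untreated, a change of -0.15 that did not pass either (adjusted p = 0.394). The starved Gdf15 libraries lay below the untreated ones without overlap, but overlapped the DMSO-treated ones. Adm2 fell, from 1.19, 1.12 and 1.13 TPM to 0.508, 0.650 and 0.631 TPM, a log2 change of -0.43 (SE 0.103, adjusted p = 0.00278). This made 1 of 3 members lower, where 12.2% of all genes tested were lower. The fall depended on the control group: against DMSO-treated cells, at 0.832, 0.671 and 0.726 TPM, the change was -0.13 (adjusted p = 0.465).

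The starvation response of all 3 members was smaller in GCN2-deletion cells than in WT by the interaction term of the model. The difference of the log2 changes was -3.20 for Fgf21 (SE 0.205, adjusted p = 5.11e-12), -3.41 for Adm2 (SE 0.145, adjusted p = 6e-16) and -1.36 for Gdf15 (SE 0.164, adjusted p = 8.97e-07). Of all genes tested, 4.17% were lower in this contrast. In starved cells, Gdf15 was 10.1 times and Adm2 15.2 times as abundant in WT as in the GCN2-deletion line.

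Starved PERK-deletion cells showed a rise in Adm2 and Gdf15, to means of 0.953 and 0.384 TPM. The ratio of mean TPM was 3.98 for Adm2, and none is given for Gdf15, which was 0 in an untreated library. Adm2 was 0.313, 0.165 and 0.240 TPM untreated and 0.604, 1.16 and 1.10 TPM starved, a log2 change of 0.65 (SE 0.103, adjusted p = 6.03e-05). Gdf15 was 0.117, 0 and 0.0558 TPM untreated and 0.250, 0.511 and 0.390 TPM starved, a change of 0.38 (SE 0.116, adjusted p = 0.0277). The starved libraries lay above the untreated ones for both genes, but the Gdf15 call rested on single libraries at these low levels. It was lost without starved replicate 2 (adjusted p = 0.128) or 3 (0.0683), or without untreated replicate 2 (0.102) or 3 (0.0583). Fgf21 was listed at 0 in all 3 untreated libraries and at 0.389, 0.176 and 0.226 TPM in the starved ones, a change of 0.33 that did not pass (adjusted p = 0.147) but did with a pseudocount of 0.1 (1.82, adjusted p = 0.016) and with array weights (0.27, adjusted p = 0.0449). Thus 2 of 3 members were higher, beside 5.75% of all genes. Starved replicate 1, with the lowest Adm2 and Gdf15 and the highest Fgf21 of its group, also stood apart in make-up: microRNA genes held 3.46% and mitochondrial genes 4.33% of its TPM, against 0.960% and 7.80% in replicate 2 and 0.990% and 7.97% in replicate 3. Without it the changes were 0.78 for Adm2 (adjusted p = 3.99e-06), 0.46 for Gdf15 (adjusted p = 0.0208) and 0.26 for Fgf21 (adjusted p = 0.373).

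Compared with WT, the PERK-deletion line also had a smaller starvation response for each hormone. The difference was -2.76 for Fgf21 (SE 0.205, adjusted p = 1.6e-10), -2.34 for Adm2 (SE 0.145, adjusted p = 4.22e-12) and -0.83 for Gdf15 (SE 0.164, adjusted p = 0.000848), and 5.34% of all genes tested were lower in this contrast. The Gdf15 difference did not pass with a pseudocount of 0.1 (-1.002, adjusted p = 0.181), with array weights (-0.68, adjusted p = 0.091) or when only the compared groups were fitted (-0.83, adjusted p = 0.0513). Starved Fgf21 was 40.1 times, Adm2 9.48 times and Gdf15 4.68 times as abundant in WT as in the PERK-deletion line. Between the deletion lines, the starvation response of Adm2 was larger in the PERK-deletion line than in the GCN2-deletion line by 1.07 (SE 0.145, adjusted p = 2.97e-05), 1 of 3 members beside 2.07% of genes (1.31% without GCN2-deletion untreated replicate 1). With DMSO as the control of starvation this Adm2 difference was 0.62 (adjusted p = 0.0165). The same contrast gave 0.43 for Fgf21 (adjusted p = 0.278) and 0.54 for Gdf15 (adjusted p = 0.0608). Both passed under a pseudocount of 0.1, at 2.45 (adjusted p = 0.0493) and 2.22 (adjusted p = 0.0039). Gdf15 also passed without starved PERK-deletion replicate 1 (0.61, adjusted p = 0.0441).

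Thapsigargin raised all 3 hormones in WT cells. DMSO-treated WT libraries held Fgf21 at 0.162, 0.833 and 0.481 TPM and thapsigargin-treated ones at 18.5, 18.9 and 16.8 TPM. Gdf15 went from 0.105, 0.325 and 0.139 TPM to 2.83, 2.53 and 1.88 TPM, and Adm2 from 0.525, 0.658 and 0.483 TPM to 6.23, 6.62 and 7.16 TPM. No treated library overlapped a DMSO library. Mean TPM was higher by ratios of 36.7, 12.7 and 12.02 in that order. The log2 changes were 3.70 for Fgf21 (adjusted p = 3.43e-17), 1.51 for Gdf15 (adjusted p = 5.05e-11) and 2.30 for Adm2 (adjusted p = 5.47e-16), so 3 of 3 were higher, beside 11.4% of all genes tested.

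In WT cells the balance of the hormones differed between the 2 stresses. Thapsigargin-treated cells held 18.1 ± 1.14 TPM of Fgf21 (SD, n = 3) and starved cells 10.6 ± 1.45 TPM, while Adm2 stood at 6.67 ± 0.465 and 9.04 ± 1.21 TPM. The Fgf21 and Adm2 libraries of the 2 stresses did not overlap, those of Gdf15 did. The starvation effect on Adm2 exceeded the thapsigargin effect by 0.68 (SE 0.145, adjusted p = 0.00159), 1 of 3 members, where 5.77% of all genes were higher. With 1 shared control for both stresses it was 0.38 (adjusted p = 0.00651). For Fgf21 the difference was -0.60 (SE 0.205, adjusted p = 0.055) and for Gdf15 -0.30 (adjusted p = 0.26). The Fgf21 difference passed when 1 shared control served both stresses (-0.73, adjusted p = 0.000421). It also passed without DMSO replicate 2 (-0.76, adjusted p = 0.011) or untreated replicate 1 (-0.76, adjusted p = 0.0122), the WT libraries with the highest and the lowest control value. Within a library, the ratio of Fgf21 to Adm2 was 1.17 ± 0.0357 under starvation and 2.72 ± 0.335 under thapsigargin.

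Thapsigargin split the hormones in the GCN2-deletion line: Fgf21 stayed below its WT level, whereas Gdf15 and Adm2 rose above theirs. Adm2 went from 0.832, 0.671 and 0.726 TPM to 20.8, 21.0 and 21.5 TPM, the highest level of any member in any group. Gdf15 went from 0.129, 0.134 and 0.276 TPM to 4.14, 5.31 and 5.29 TPM. Fgf21 was listed at 0 in all 3 DMSO libraries and at 4.30, 3.58 and 5.15 TPM with thapsigargin. The log2 changes were 3.67 for Adm2 (adjusted p = 1.38e-20), 2.32 for Gdf15 (adjusted p = 5.52e-15) and 2.41 for Fgf21 (adjusted p = 3.3e-13). All 3 were called higher, in a comparison where 25.4% of all genes tested were. The ratio of means was 28.4 for Adm2 and 27.3 for Gdf15, and no ratio is given for Fgf21 against 0.

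Set against WT, the thapsigargin response of Adm2 was larger in the GCN2-deletion line by 1.36 (SE 0.145, adjusted p = 4.37e-07) and that of Gdf15 by 0.81 (SE 0.164, adjusted p = 0.00179). In this contrast 12.3% of all genes were higher. With untreated cells as the control the Adm2 difference was 0.76 (adjusted p = 0.000478). The Fgf21 response was smaller by this model, with a difference of -1.29 (SE 0.205, adjusted p = 0.000122), where 1.95% of genes were lower. Thapsigargin-treated levels gave the same order, with GCN2-deletion means at 3.16 times the WT mean for Adm2, 2.04 times for Gdf15 and 0.240 times for Fgf21, and no overlap of libraries for any of them. Because the Fgf21 controls of the GCN2-deletion line were at 0, its difference depends on the pseudocount: with 0.1 in place of 1 it turned to 0.34 (adjusted p = 0.807). The Gdf15 difference did not pass with a pseudocount of 0.1 (1.02, adjusted p = 0.134) or after quantile normalization (0.52, adjusted p = 0.051). Rescaling the libraries by median ratios moved the median of all genes in this contrast by -0.172, and all 3 members kept their direction and their call. The ratio of Fgf21 to Adm2 in thapsigargin-treated GCN2-deletion libraries was 0.206 ± 0.0345, below every WT library under either stress.

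No hormone passed the test with thapsigargin in the PERK-deletion line. Fgf21 was listed at 0, 0.160 and 0 TPM with DMSO and at 0, 0.284 and 0.160 TPM with thapsigargin, a log2 change of 0.12 (adjusted p = 0.816). Adm2 was 0.397, 0.386 and 0.343 TPM with DMSO and 0.738, 0.394 and 0.663 TPM with thapsigargin, a change of 0.21 (adjusted p = 0.326). Gdf15 was 0.0925, 0.0515 and 0.0457 TPM with DMSO and 0.413, 0.230 and 0.309 TPM with thapsigargin, a change of 0.31 (adjusted p = 0.148). The Gdf15 libraries did not overlap (ratio of mean TPM 5.02), while those of Adm2 did (1.59). The Gdf15 change passed with a pseudocount of 0.1 (1.34, adjusted p = 0.00905) and with array weights (0.31, adjusted p = 0.0399). Adm2 passed against untreated cells (0.36, adjusted p = 0.0219). Over all genes tested, 5.3% changed in either direction in this comparison.

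The thapsigargin response was smaller in PERK-deletion cells than in WT for all 3 members. The difference was -3.58 for Fgf21 (adjusted p = 1.3e-12), -2.09 for Adm2 (adjusted p = 3.83e-11) and -1.21 for Gdf15 (adjusted p = 5.5e-06), beside 7.38% of all genes lower. Against the GCN2-deletion line it was -2.29, -3.45 and -2.01 (adjusted p = 3.52e-09, 1.97e-15 and 5.66e-10), beside 18.1% of genes. Thapsigargin-treated Adm2 was 11.2 times as abundant in WT and 35.3 times as abundant in GCN2-deletion cells as in PERK-deletion cells. For Gdf15 these ratios were 7.60 and 15.5.

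Within the GCN2-deletion line, the starvation effect was below the thapsigargin effect for all 3 members, by -2.51 for Fgf21 (adjusted p = 2.64e-10), -2.47 for Gdf15 (adjusted p = 3.6e-12) and -4.09 for Adm2 (adjusted p = 4.47e-18), where 17.2% of all genes were lower. Within the PERK-deletion line, 0 of 3 members differed between the 2 stresses by limma, at 0.21 (adjusted p = 0.669), 0.08 (adjusted p = 0.877) and 0.43 (adjusted p = 0.0593) for Fgf21, Gdf15 and Adm2. In this contrast 9.29% of all genes differed in either direction. The Adm2 difference passed without starved replicate 1 (0.57, adjusted p = 0.00541) or thapsigargin replicate 1 (0.50, adjusted p = 0.0423).

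**Figure D2:**
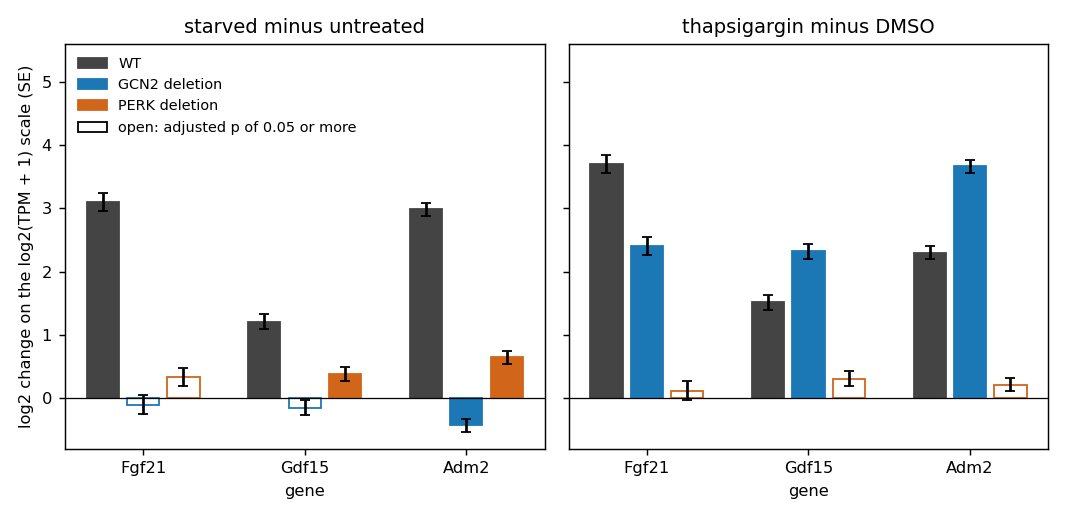
Log2 change on the log2(TPM + 1) scale (bars, SE as error bars) of Fgf21, Gdf15 and Adm2 with starvation against untreated cells (left) and thapsigargin against DMSO (right) in each line; open bars did not pass the adjusted p of 0.05. WT bars are high for both stresses, GCN2-deletion bars are high only for thapsigargin, and PERK-deletion bars stay at or under 0.65.

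DMSO alone changed no member past the threshold in any line. In WT cells Adm2 was higher with DMSO in all 3 libraries, with means of 0.555 ± 0.0910 and 0.262 ± 0.0416 TPM, but its log2 change of 0.30 did not pass (adjusted p = 0.201). Fgf21 and Gdf15 overlapped between untreated and DMSO-treated WT cells, with changes of 0.12 and -0.02. In the GCN2-deletion line the changes were -0.13, -0.15 and -0.30 for Fgf21, Gdf15 and Adm2, and in the PERK-deletion line 0.07, 0.01 and 0.15. Untreated and DMSO-treated Adm2 libraries did not overlap in these lines either. With DMSO they were lower in the GCN2-deletion line (ratio of mean TPM 0.649) and higher in the PERK-deletion line (1.57). Over all genes, DMSO changed 0.118% in WT, 0.149% in GCN2-deletion and 0.242% in PERK-deletion cells. Without untreated replicate 3, the WT share became 9.03%. Adm2 passed only under array weights, at -0.35 in GCN2-deletion (adjusted p = 9.87e-05) and 0.23 in PERK-deletion cells (adjusted p = 0.0334).

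Resting levels also differed between lines. Untreated Adm2 was 4.37 times as abundant in the GCN2-deletion line (1.14 ± 0.0373 TPM) as in WT (0.262 ± 0.0416 TPM), a log2 difference of 0.77 (SE 0.103, adjusted p = 4.95e-07), where 21.2% of all genes tested were higher. Among DMSO-treated cells the same difference was 0.17 and did not pass (adjusted p = 0.211). Neither Fgf21 (-0.30, adjusted p = 0.0976) nor Gdf15 (0.12, adjusted p = 0.414) passed in this contrast. The Fgf21 difference passed without WT untreated replicate 1 (-0.46, adjusted p = 0.0164) and between DMSO-treated cells (-0.55, adjusted p = 0.00264). In the PERK-deletion line 1 of 3 members, Fgf21, was lower than in WT (-0.43, adjusted p = 0.0155), beside 18.6% of genes. That call was lost without WT untreated replicate 2 (adjusted p = 0.0613) or 3 (0.0962). Gdf15 (-0.18, adjusted p = 0.198) and Adm2 (-0.03, adjusted p = 0.861) did not pass. Between the deletion lines, 2 of 3 members were lower in the PERK-deletion line, beside 16.2% of genes: Adm2 by -0.79 (adjusted p = 2.9e-07) and Gdf15 by -0.31 (adjusted p = 0.0302). Between DMSO-treated cells of these lines the differences were -0.34 for Adm2 (adjusted p = 0.00742) and -0.15 for Gdf15, which did not pass (adjusted p = 0.315). The Gdf15 call was lost without untreated GCN2-deletion replicate 2 (adjusted p = 0.103) or untreated PERK-deletion replicate 2 (0.103) or 3 (0.0549).

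Ranked over the 12 groups, Fgf21 was highest in WT cells with thapsigargin, then in starved WT cells, then in GCN2-deletion cells with thapsigargin, with no overlap between neighbours down to the next group. Below these, each neighbouring pair of the other 9 groups overlapped, and no library of these exceeded 0.833 TPM. Gdf15 had its highest level in GCN2-deletion cells with thapsigargin. WT cells with thapsigargin and starved WT cells followed and overlapped each other, and both lay above the remaining groups. For Adm2 the order was GCN2-deletion cells with thapsigargin, starved WT cells and WT cells with thapsigargin, with no overlap among them.

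The genes whose pattern over the 12 group means was most like each member's were named by Pearson's r. They were drawn from 10267 genes that reached at least 5 TPM in a group, leaving out Gm, Rik, Mir and clone-like symbols. The points share libraries and the order is a description. For Fgf21 they were Elovl3 (0.995), an enzyme that lengthens very long chain fatty acids, Car6 (0.988), a secreted carbonic anhydrase, Cnih1 (0.984), a cargo receptor for export from the endoplasmic reticulum, Got1 (0.981), the cytosolic aspartate aminotransferase, and Cox6a2 (0.972), a muscle subunit of cytochrome oxidase. Elovl3 showed the Fgf21 order on a smaller scale: 6.07 ± 0.399 TPM in WT cells with thapsigargin, 4.83 ± 0.508 in starved WT cells and 1.73 ± 0.404 in GCN2-deletion cells with thapsigargin. For Gdf15 they were Adm2 itself (0.983), Nfil3 (0.970), a repressor of the bZIP family, Zscan25 (0.963), Atxn2l (0.957) and Stc2 (0.956), a secreted glycoprotein. Adm2 shared Stc2 (0.959), Atxn2l (0.954) and Nfil3 (0.950), followed by Cebpg (0.948), a C/EBP partner of ATF4, and Slc7a5 (0.943), the large neutral amino acid transporter. Gdf15, with r of 0.983 to Adm2, was not ranked for it because its highest group mean was 4.91 TPM. Nfil3 reached 151 ± 4.25 TPM in GCN2-deletion cells with thapsigargin and 82.7 ± 2.55 in WT cells with it. Fgf21 was less like the other members, with r of 0.848 to Gdf15 and 0.851 to Adm2 (Spearman's rho 0.830 and 0.553, n = 12 groups). With a pseudocount of 0.1, 2 of the 5 genes named for Fgf21, 2 of 5 for Gdf15 and 3 of 5 for Adm2 stayed among the nearest 5.

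**Figure D3:**
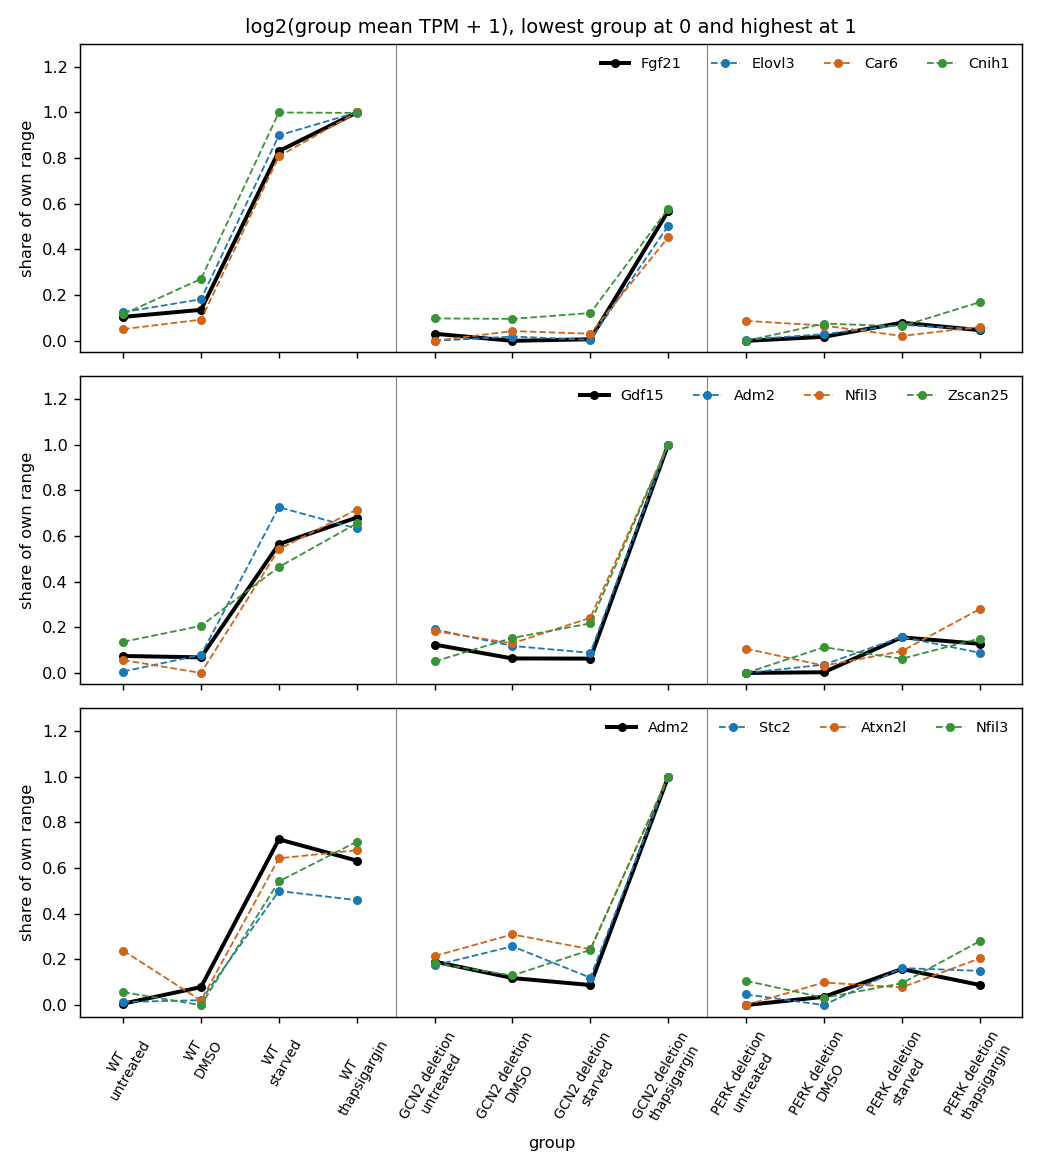
Group means on the log2(TPM + 1) scale across the 12 groups, rescaled so that each gene's lowest group is 0 and its highest is 1. Each member is black, and the 3 genes most like it among those ranked are dashed. Gdf15 was not ranked for Adm2. The Fgf21 set peaks in WT cells and reaches an intermediate level in GCN2-deletion cells with thapsigargin, while the Gdf15 and Adm2 sets peak in the latter group.

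The transcription factors known or proposed to act on these hormone genes were read from a list of 16, of which 14 were tested. Counts in this and the other lists stand beside the shares of all genes tested: 12.5% rose and 17.4% fell with WT starvation, 11.7% and 12.2% with GCN2-deletion starvation, 5.75% and 6.39% with PERK-deletion starvation, 11.4% and 14.8% with WT thapsigargin, 25.4% and 11.3% with GCN2-deletion thapsigargin, and 2.5% and 2.8% with PERK-deletion thapsigargin. With WT starvation 11 rose and 1 fell (median log2 change 0.67, against -0.05 over all genes). Atf3 (2.83), Nupr1 (2.35), Ddit3 (1.93), Cebpg (1.35) and Atf4 (0.95) were among those that rose. In starved GCN2-deletion cells 3 rose and 4 fell (median -0.10, all genes -0.00), with Ddit3 at -1.08 and Xbp1 at -0.80, while Atf3 still rose by 0.86. Of these falls, that of Nupr1 (-0.27) was lost in 4 fits without a single library and against DMSO-treated cells. With WT thapsigargin 11 rose and 1 fell (median 0.80, all genes -0.04), and with GCN2-deletion thapsigargin 11 rose and 0 fell (median 1.18, all genes 0.08). In starved PERK-deletion cells 3 rose and 2 fell (median 0.05, all genes -0.02). The count that fell became 4 without untreated replicate 3. With thapsigargin in that line, where no hormone passed, 5 regulators rose and 1 fell (median 0.14, all genes -0.04): Xbp1 by 2.30, Ddit3 by 2.27, Atf3 by 0.84, Nupr1 by 0.67 and Atf4 by 0.57, with Egr1 at -1.88. Ddit3, which encodes CHOP, was thus higher in PERK-deletion cells given thapsigargin while no library there exceeded 0.738 TPM for any of the 3 hormones. With untreated cells as the control of that comparison, 8 regulators rose and Adm2 passed (0.36, adjusted p = 0.0219).

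Over all genes tested, the medians of the 6 stress comparisons lay between -0.05 and 0.08, and the list medians that follow can be read against these. A panel of 10 ATF4 targets was chosen with results of these samples known and is not independent evidence of direction. Of it 10 rose with WT starvation (median 2.36), 9 with WT thapsigargin (median 1.92) and 10 with GCN2-deletion thapsigargin (median 2.83). Trib3, a pseudokinase, led in each, at 3.39, 3.83 and 5.02. In starved GCN2-deletion cells 6 fell and 0 rose (median -0.34), the direction in which Adm2 moved. In PERK-deletion cells 5 rose with thapsigargin (median 0.53) and 4 with starvation (median 0.23), led by Chac1 (1.21) and Slc7a11 (1.38). Both counts depended on the control group. Against untreated cells 10 rose with thapsigargin, and against DMSO-treated cells 1 rose and 1 fell with starvation. The count for starvation was 8 without starved replicate 1, 2 without starved replicate 2, 1 without starved replicate 3 and 2 without untreated replicate 3, and Slc7a11 passed in each.

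Of 14 other secreted stress factors, 12 were tested, and they followed several patterns. With WT starvation 6 rose and 2 fell (median 0.20, beside 12.5% and 17.4% of all genes), with WT thapsigargin 6 and 1 (0.36, beside 11.4% and 14.8%), and with GCN2-deletion thapsigargin 8 and 2 (1.49, beside 25.4% and 11.3%). The counts in starved GCN2-deletion cells were 6 and 3 (0.06, beside 11.7% and 12.2%), in starved PERK-deletion cells 3 and 1 (-0.08, beside 5.75% and 6.39%) and in PERK-deletion cells with thapsigargin 2 and 3 (0.01, beside 2.5% and 2.8%), where the count that fell was 1 without DMSO replicate 2. Stc2 rose where Adm2 did in WT and GCN2-deletion cells, by 1.47 with WT starvation, 1.33 with WT thapsigargin and 2.26 with GCN2-deletion thapsigargin. Manf and Creld2, chaperone-like proteins of the endoplasmic reticulum, rose with thapsigargin in all 3 lines (2.14, 1.68 and 2.32 for Manf, 1.99, 1.88 and 2.15 for Creld2, in WT, GCN2-deletion and PERK-deletion cells). Lif, a cytokine of the interleukin-6 family, and Vegfa, the vascular growth factor, rose with starvation in all 3 lines, including by 2.59 and 1.68 in the GCN2-deletion line, where no hormone of the 3 rose. Lif in the PERK-deletion line (0.66) did not pass when only the compared groups were fitted.

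**Figure D4:**
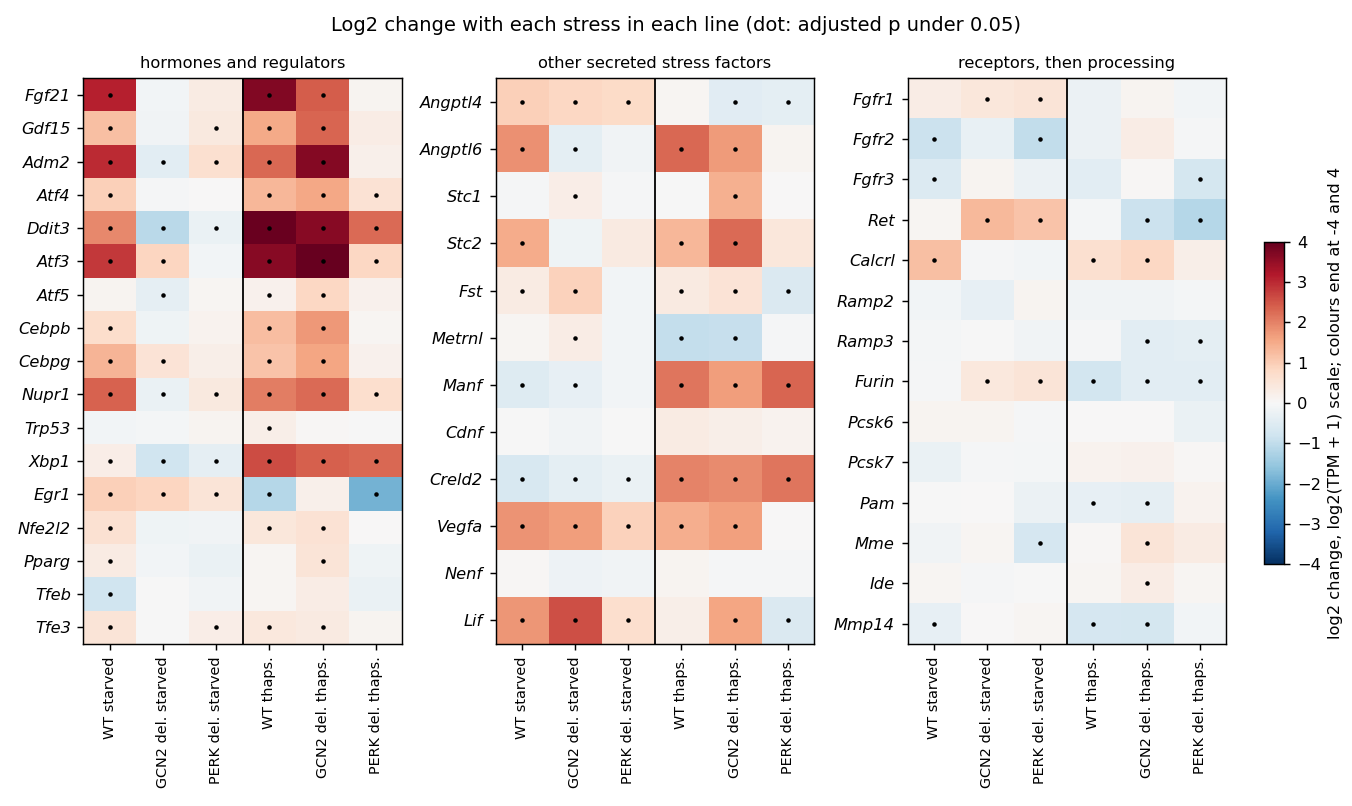
Log2 change (colour; the scale ends at -4 and 4) on the log2(TPM + 1) scale of the 3 hormones with their regulators, of other secreted stress factors, and of receptors and processing enzymes, for both stresses in each line; a dot marks an adjusted p under 0.05. Manf and Creld2 are red with thapsigargin in all 3 lines, unlike the hormones.

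Levels of the receptor genes for the hormones ranged from 0 to above those of the hormones. Klb, the co-receptor that FGF21 requires, was at most 0.104 TPM in any library, and Gfral, the GDF15 receptor, was listed at 0 in all 36. Fgfr1, which pairs with Klb, ranged from 52.2 to 160 TPM, Fgfr2 from 2.01 to 48.4 TPM and Ramp3, a RAMP partner, from 5.47 to 15.02 TPM. Calcrl, the receptor to which ADM2 binds with RAMP partners, reached 2.77 TPM in starved WT cells, its highest group mean. Of 11 receptor genes 7 were tested. Counts of those that rose and fell were 1 and 2 with starvation in WT (median -0.09), 2 and 0 in GCN2-deletion cells (-0.00) and 2 and 1 in PERK-deletion cells (-0.11). With thapsigargin they were 1 and 0 (-0.14), 1 and 2 (0.05) and 0 and 3 (-0.11). Over all genes the shares that rose and fell were, in the same order of lines, 12.5% and 17.4%, 11.7% and 12.2%, and 5.75% and 6.39% with starvation, and 11.4% and 14.8%, 25.4% and 11.3%, and 2.5% and 2.8% with thapsigargin. With 7 genes tested, nothing particular to the receptors is read from these counts. Calcrl rose by 1.20 with WT starvation and 0.83 with GCN2-deletion thapsigargin, as Adm2 did, although the first did not pass under array weights. Ret, the signalling partner of GFRAL, rose with starvation by 1.29 in GCN2-deletion and 1.13 in PERK-deletion cells, and fell with thapsigargin in these lines (-0.86 and -1.13). These Ret calls passed whichever library was left out. Calcrl was also the receptor gene that rose with WT thapsigargin (0.63), a call lost without DMSO replicate 1 or 2 or thapsigargin replicate 1. Of the 3 falls with PERK-deletion thapsigargin, 1 (Ret) passed whichever library was left out.

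Among the enzymes that mature or degrade these hormones, 7 of 11 were tested. Furin, a proprotein convertase that can cleave the GDF15 precursor, fell with thapsigargin in all 3 lines (-0.74 in WT, -0.42 in GCN2-deletion and -0.43 in PERK-deletion cells), including those where Gdf15 mRNA rose. The last of these did not pass against untreated cells. Fap, the protease that inactivates FGF21, was at most 1.20 TPM, was listed at 0 in 9 libraries and was too low to test. Counts of enzymes that rose and fell with starvation were 0 and 1 in WT (median -0.05), 1 and 0 in GCN2-deletion cells (0.01) and 1 and 1 in the PERK-deletion line (-0.05). With thapsigargin they were 0 and 3 (0.01), 2 and 3 (0.00) and 0 and 1 (0.04). Beside the shares of all genes given with the receptors, 7 enzymes are too few to read anything particular from these counts. Of the 2 rises with GCN2-deletion thapsigargin, Mme passed whichever library was left out, and Ide (adjusted p = 0.0488) was lost in 5 fits without a single library and under 6 other alternatives.

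Of 20 relatives in the same peptide and growth factor families, 7 were tested and none rose with both stresses in WT cells. Fgf15 and Fgf23, the other endocrine fibroblast growth factors, stayed at or below 0.227 TPM. Adm, the adrenomedullin gene closest in function to Adm2, fell by 2.06 on the log2 scale with GCN2-deletion thapsigargin, the group in which Adm2 was highest. Gdf11 fell with WT starvation (-1.22) and WT thapsigargin (-0.62), where Gdf15 rose. Tgfb2 rose with thapsigargin in all 3 lines (0.98, 1.90 and 0.48), the last not against untreated cells. Counts of relatives that rose and fell with starvation were 2 and 2 in WT (median -0.17), 2 and 2 in GCN2-deletion cells (0.07) and 1 and 3 in the PERK-deletion line (-0.03). With thapsigargin they were 1 and 5 (-0.50), 2 and 4 (-0.36) and 1 and 3 (-0.23). The shares of all genes that rose and fell are those given with the receptors, and 5 of 7 relatives falling with WT thapsigargin stands beside 14.8% of all genes. Of the 2 rises with WT starvation, Inhba passed whichever library was left out, and Tgfb1 was lost without starved replicate 2 or 3 or untreated replicate 2 or 3. The Tgfb1 rise with PERK-deletion starvation and the Inhba rise with GCN2-deletion thapsigargin were each lost in 3 such fits. The 3 falls with PERK-deletion thapsigargin were each lost when some single library was left out, and 3 of the 5 with WT thapsigargin (Gdf11, Tgfb1 and Tgfb3) passed whichever was left out.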

How the data were processed

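Libraries were made with stranded TruSeq kits from Trizol-extracted total RNA, per the labels' protocols. The submitters' processing notes name FastQC, kallisto and mm10, without versions or roles. The authors deposited 1 table of TPM for 54735 gene symbols and 36 libraries, and 0 per-sample columns were left unused. Column totals ran from 999999.83 to 1000000.09, so depth is unknown and precision rests on 3 libraries per group.

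Values were used as log2(TPM + 1). The 16083 genes that reached 1 TPM in 3 or more libraries were fitted in 1 linear model over the 12 groups with limma 3.58.1 in R 4.3.3, with variances that follow level, 24 residual degrees of freedom and no covariate. Every adjusted p is limma's, by the Benjamini-Hochberg method across the tested genes of a comparison, and "rose" or "fell" is used where it was under 0.05. The 21 comparisons are each stress and DMSO in each line, differences of stress effects between lines and within a line, and differences between untreated lines. The script was tested on simulated data. Alternatives were another control group, pseudocount 0.1, a 5 TPM filter or none, median-ratio or quantile normalization, no variance trend, array weights, a replicate block, only the compared groups, and each library left out. Leaving out the 6 libraries rich in microRNA TPM was added after seeing the data. Where a gene was 0 in a library, no ratio of means was formed with that group.

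Loci came from GENCODE M21 (GRCm38), which matched 54106 symbols, and promoter windows from the RefSeq table, where all 3 members matched. The 3 members were named in every comparison, with the 5 genes most like each and up to 6 genes per list (those with the largest changes that passed and defining ones near 0). The members and lists were chosen with earlier results of these data known. Python 3.11.15 with matplotlib 3.10.9 drew the figures.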

Additional observations from a re-analysis of the deposited data

Results flagged for a closer look

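The stress responses below differed between lines by the interaction term of the limma fit, as differences of log2 changes. The starvation response was smaller in GCN2-deletion cells than in WT by -3.20 for Fgf21, -1.36 for Gdf15 and -3.41 for Adm2. It was smaller in PERK-deletion cells than in WT by -2.76, -0.83 and -2.34 in that order, the Gdf15 value not passing under 3 alternatives. The starvation response of Adm2 was larger in the PERK-deletion line than in the GCN2-deletion line by 1.07.

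For thapsigargin, the response in the GCN2-deletion line against WT was -1.29 for Fgf21, which turned positive with a pseudocount of 0.1, 0.81 for Gdf15 and 1.36 for Adm2. The PERK-deletion line responded less than WT by -3.58, -1.21 and -2.09 for Fgf21, Gdf15 and Adm2, and less than the GCN2-deletion line by -2.29, -2.01 and -3.45.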

How the results depend on the processing

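The 3 members gave 63 results over the 21 comparisons, 36 of them past the threshold. Of all, 44 kept their direction where called and their side of the threshold under every alternative that could be fitted, 28 of these past it. The other 19 changed: 18 under an alternative other than leaving out 1 library and 7 when 1 library was left out, with 6 in both counts. The stress effects in WT and of thapsigargin in the GCN2-deletion line, and the smaller response of the PERK-deletion line to thapsigargin, are among those that kept it for all 3 genes. The cause of each change was not tested unless stated. Gdf15 had no value under the 5 TPM filter, since fewer than 3 libraries reach that level. Where a gene is near 0, the pseudocount sets the size of its log2 change: with 0.1, 23 of the 36 called values moved by over 1.5 times, by up to 4.7 times.

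With a pseudocount of 0.1, the Fgf21 thapsigargin difference of GCN2-deletion cells from WT reversed to 0.34. Values that passed were 1.82 (Fgf21, PERK-deletion starvation), 2.45 and 2.22 (Fgf21 and Gdf15, starvation between the deletion lines), 1.34 (Gdf15, PERK-deletion thapsigargin), -0.99 (Gdf15, untreated PERK-deletion line against WT) and 1.09 (Adm2, starvation minus thapsigargin in the PERK-deletion line). Gdf15 did not pass at -1.002 for starvation in the PERK-deletion line against WT and 1.02 for thapsigargin in the GCN2-deletion line against WT. With array weights, whose estimate gave a convergence warning, values that passed were 0.27 (Fgf21, PERK-deletion starvation), 0.31 (Gdf15, PERK-deletion thapsigargin), 0.62 (Gdf15, starvation between the deletion lines), 0.60 (Adm2, starvation minus thapsigargin in the PERK-deletion line), and -0.35 and 0.23 (Adm2, DMSO in the GCN2- and PERK-deletion lines). Those that did not were -0.43 (Fgf21, untreated PERK-deletion line against WT) and -0.68 (Gdf15, starvation, PERK-deletion line against WT), the latter also not passing with only the compared groups (-0.83).

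The Fgf21 difference between the stresses in WT passed with 1 shared control (-0.73), median-ratio rescaling (-0.68), no variance trend (-0.60) and without the 6 libraries rich in microRNA TPM (-0.76). Without a variance trend, Gdf15 for starvation between the deletion lines (0.54) and Adm2 for the difference between stresses in the PERK-deletion line (0.43) passed. Without those 6 libraries, Fgf21 in untreated cells of the GCN2-deletion line against WT (-0.46) and the same Adm2 difference (0.59) passed, and Gdf15 between untreated deletion lines (-0.31) did not. With DMSO groups in place of untreated ones, Fgf21 in the GCN2-deletion line against WT passed (-0.55), and Gdf15 between deletion lines (-0.15) and Adm2 in the GCN2-deletion line against WT (0.17) did not. Quantile normalization gave -0.40 for that Fgf21 difference, which passed, and 0.52 for the Gdf15 thapsigargin difference of GCN2-deletion cells from WT, which did not. With the other control group, Adm2 gave -0.13 for GCN2-deletion starvation, which did not pass, and 0.36 for PERK-deletion thapsigargin, which did.

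Replicate numbers did not pair the samples: same-numbered residuals correlated by 0.00167 on average, and in 1 of 66 group pairs all 3 correlations exceeded 0.1. The replicate block brought the Fgf21 difference between stresses in WT past the threshold (-0.60, adjusted p = 0.0448) and changed no other call.

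With each library left out in turn, results that changed ranged from -0.76 to -0.43 (Fgf21, WT starvation minus thapsigargin), -0.46 to -0.20 and -0.58 to -0.32 (Fgf21, untreated GCN2- and PERK-deletion lines against WT), 0.32 to 0.46 (Gdf15, PERK-deletion starvation), 0.47 to 0.61 and -0.35 to -0.27 (Gdf15, starved and untreated, between the deletion lines) and 0.34 to 0.57 (Adm2, PERK-deletion starvation minus thapsigargin).

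The shares of all genes called moved more. Apart from array weights, the share that rose ranged from 5.31 to 17% with WT starvation, 4.85 to 16.2% with WT thapsigargin, 11.4 to 31.3% with GCN2-deletion thapsigargin and 1.33 to 8.38% with PERK-deletion starvation. For the thapsigargin response of GCN2-deletion cells minus that of WT, also apart from array weights, the share that was higher ranged from 3.8 to 29.4%. The share that was lower ranged from 0.681 to 6.63%. With single libraries left out, those last 2 shares ranged from 5.99% (WT thapsigargin replicate 3) to 17% and from 1.18% (WT DMSO replicate 1) to 2.33%. The share that rose with PERK-deletion starvation was 3.4% without untreated replicate 3, that which fell 4.01% without untreated replicate 1, and the share that fell with PERK-deletion thapsigargin 1.53% without DMSO replicate 2. Median-ratio rescaling moved the median of all genes by over 0.1 in 5 comparisons, by -0.172 to 0.15.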
